A study of Mus musculus with 9 samples.

Results

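The aminoacyl-tRNA synthetases are the enzymes that join each amino acid to its transfer RNA (tRNA), and 36 of their genes were followed here, chosen by name as the rows of the count files that carry those symbols. They are 36 of the 35006 gene symbols in the files, and all 36 passed the filter on low counts. Of these genes 20 encode enzymes of the cytosol and 16, with symbols ending in 2, encode enzymes of the mitochondrion. RNA came from C57BL/6J mouse hair follicle stem cells of the bulge, purified by cell sorting for the surface proteins CD34 and integrin alpha6 from 3 pooled mice. One group of 5 libraries came from mice with unlimited food (ad libitum, AL) and the other of 4 libraries from mice under dietary restriction (DR), given each day 70% of the food that weight- and sex-matched AL mice ate. All mice lived alone in their cage; they came from more than 1 supplier and facility, which the labels do not tie to libraries. The labels give no age, and they do not say whether every library had its own pool of mice, so the tests measure the spread between these libraries, which may be partly technical.

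A synthetase activates its amino acid with ATP and then transfers it to the matching tRNA, and this charged tRNA carries the amino acid to the ribosome. Mitochondria make their own few proteins with their own tRNAs, which are charged by separate, nuclear-encoded enzymes, except that Gars (glycine) and Kars (lysine) serve both compartments from 1 gene. When charging fails, uncharged tRNA activates the kinase GCN2, which raises translation of the transcription factor ATF4, and many cytosolic synthetase genes are known ATF4 targets.

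Libraries held 26119459 to 33559312 counts over genes, and members had 50 to 7212 counts in a library. How much of the spread between libraries was counting error was not tested. Levels are CPM, read counts relative to a library size corrected by TMM for differences in composition. Differences between diets are log2 fold changes of DR against AL, given in parentheses with the SE after ± and edgeR's adjusted p. Bulge and basal keratinocyte markers (Krt15, Krt5, Krt14, Cd34, Itga6, Sox9, Lhx2 and Nfatc1) summed to 26703 to 38039 CPM in AL and 20224 to 21668 CPM in DR, with 5 of 8 lower in DR. Markers of other cells were present at lower sums than these, and none of those listed was at 0 in every library. The 5 endothelial markers summed to 2.18 to 18.1 CPM in AL and 4.48 to 37.0 in DR, the 6 immune markers to 15.3 to 48.2 and 20.8 to 66.5, the 8 fibroblast markers to 92.2 to 161 and 26.1 to 65.3, the 6 melanocyte markers to 7.41 to 24.4 and 5.71 to 7.48, the 5 sebocyte markers to 278 to 383 and 173 to 232 and the 4 erythroid markers to 0.602 to 1.16 and 0.676 to 0.863. Endothelial and immune sums were highest in AL 1, DR 1 and DR 2. Fibroblast and sebocyte sums were lower in every DR library than in every AL library, and so were the bulge and basal sums. The part of the other cells in the results below was not tested. In such bulk samples fewer cells of a type and less RNA per cell cannot be told apart.

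Of the 36 synthetase genes 13 were lower and 3 higher in DR, and 20 did not pass the test; the fold changes ranged most widely among the mitochondrial enzymes. By edgeR's quasi-likelihood test at an adjusted p of 0.05, 16 of the 36 members passed (44.4%), against 40.7% of all 15447 genes tested. Of the 20 cytosolic genes 7 were lower and 1 higher in DR, and of the 16 mitochondrial genes 6 were lower and 2 higher. Lower calls made up 35% of the cytosolic and 37.5% of the mitochondrial genes, against 21.7% of all genes, and higher calls 5% and 12.5%, against 19%. The median log2 fold change was -0.13 for the cytosolic and -0.28 for the mitochondrial genes, beside -0.02 over all genes, and 17 of 20 and 10 of 16 lay below 0. Regardless of sign, the median size was 0.18 for the cytosolic genes, 0.34 for the mitochondrial genes and 0.34 over all genes, so the wider mitochondrial spread is that of genes at large. The median SE was 0.09, 0.13 and 0.15 in the same order. Libraries of the diets did not overlap for 12 of the 36 members (10 with DR below AL, 2 with DR above), against 32.9% of all genes (17% below, 15.9% above). These shares and medians are a description and carry no test of their own. Without DR 3 only 4 cytosolic genes passed as lower. The higher calls are few: Hars2 was lost without any 1 of 7 libraries and Qars without any 1 of 3, as given below. Some lower calls were as easily lost. Of the 9 fits without 1 library, Vars and Nars2 passed in 1, Eprs in 2, Aars2 in 4 and Dars in 8. Of all 16 calls, 9 held in every such fit and under all alternative scalings, filters and tests.

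**Figure D1:**
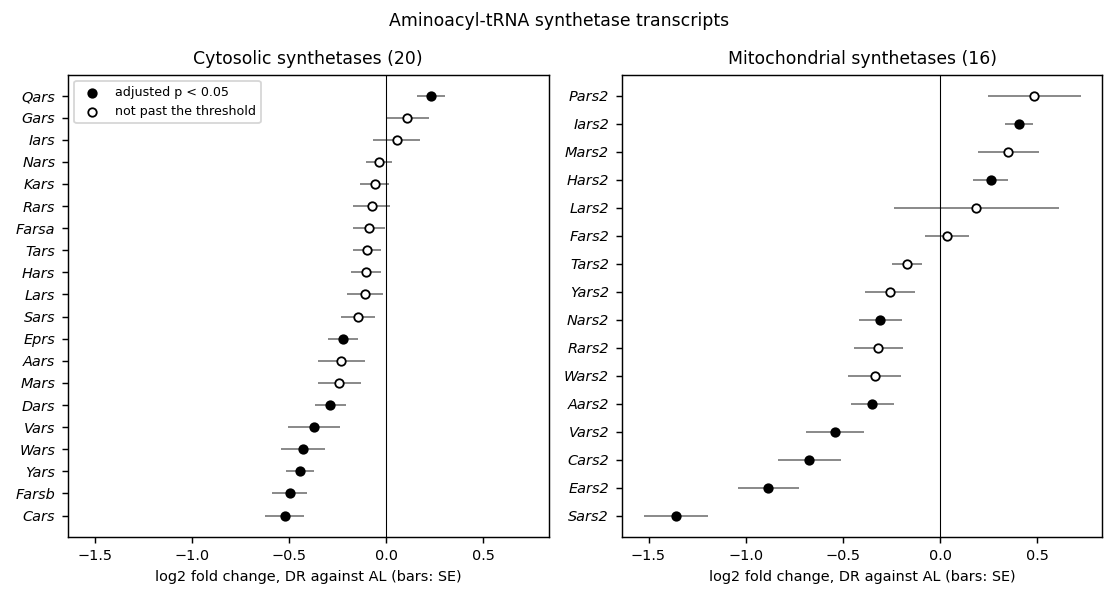
Log2 fold change of DR against AL (horizontal axis) with its SE for each of the 20 cytosolic and 16 mitochondrial synthetase genes, filled where the adjusted p is below 0.05. The cytosolic genes lie between -0.52 (Cars) and 0.23 (Qars), the mitochondrial genes between -1.36 (Sars2) and 0.49 (Pars2).

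Promoters are shown first for the members that hold a known control element near their start, since these elements are known to act on synthetase or mitochondrial genes and can be read beside the fold changes that follow. The RefSeq promoter table (GRCm38.p6) matched 26 of the 36 members by symbol, 12 cytosolic and 14 mitochondrial; Cars, Hars, Hars2, Lars, Mars, Nars, Pars2, Rars, Vars and Wars were not matched. Windows of 250 bases before to 50 after the start were searched on both strands for 3 motifs. Among them were TGATGNAA, the core of the C/EBP-ATF response element (CARE) that ATF4 binds, and CACGTG, the E-box of Myc and USF factors. The last was the motif of NRF1 (GCGC, any base, TGCGC), an activator of nuclear genes for mitochondrial proteins. No match in a member overlapped another. CARE was found in 5 of 12 cytosolic and 0 of 14 mitochondrial members, against 4.51% of all 27025 symbols of the table and 2.8% of the 9727 among them that were tested here. The E-box was found in 4 cytosolic members (Aars, Farsb, Iars, Tars) and in Ears2, against 8.09% of all symbols and 11.7% of those tested. NRF1 matches lay in 3 cytosolic members (Farsb, Kars, Tars) and in 2 mitochondrial ones (Iars2, Mars2), against 5.19% and 10.8%. A match is a run of letters and not a shown site of binding.
The 5 members with a CARE are printed from 60 bases before to 20 after the start (build GRCm38.p6, 5′ to 3′ along the gene), with matches to any of the motifs that lie wholly within this stretch in capitals.
Aars (chr8:111033782-111033861, plus strand): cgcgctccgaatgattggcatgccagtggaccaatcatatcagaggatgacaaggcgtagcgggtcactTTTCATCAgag
Gars (chr6:55037941-55038020, plus strand): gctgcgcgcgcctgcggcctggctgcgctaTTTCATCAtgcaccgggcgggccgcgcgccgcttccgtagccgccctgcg
Iars (chr13:49682070-49682149, plus strand): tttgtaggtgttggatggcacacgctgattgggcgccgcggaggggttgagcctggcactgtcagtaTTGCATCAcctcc
Tars (chr15:11399639-11399718, minus strand): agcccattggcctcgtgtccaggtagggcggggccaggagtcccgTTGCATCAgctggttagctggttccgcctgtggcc
Yars (chr4:129189843-129189922, plus strand): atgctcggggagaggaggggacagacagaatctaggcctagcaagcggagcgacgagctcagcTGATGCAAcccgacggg
The CARE began 30 bases before the start in Gars, 15 before it in Tars, and at base 4 (Yars), 8 (Iars) or 10 (Aars) of the transcript, with a further match 112 bases before the start of Aars. Of these 5 genes only Yars passed in DR, as lower (-0.44), and the others had log2 fold changes of -0.23 (Aars), -0.10 (Tars), 0.05 (Iars) and 0.11 (Gars).
Members with an NRF1 match in the same stretch (Iars2, Mars2 and Kars) are shown next, whatever their result. Farsb is added for its E-box, and its NRF1 match, at base 29 of the transcript, lies beyond the stretch.
Iars2 (chr1:185329382-185329461, minus strand): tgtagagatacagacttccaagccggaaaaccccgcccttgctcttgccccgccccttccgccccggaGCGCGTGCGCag
Mars2 (chr1:55237117-55237196, plus strand): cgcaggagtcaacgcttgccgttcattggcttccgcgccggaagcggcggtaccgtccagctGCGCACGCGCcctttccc
Kars (chr8:112011335-112011414, minus strand): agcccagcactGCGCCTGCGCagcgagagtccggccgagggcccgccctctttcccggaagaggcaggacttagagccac
Farsb (chr1:78488878-78488957, minus strand): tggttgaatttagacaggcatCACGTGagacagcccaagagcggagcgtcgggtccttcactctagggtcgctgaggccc
Their log2 fold changes were 0.41 for Iars2, 0.35 for Mars2, -0.06 for Kars and -0.50 for Farsb. Of the 5 members with an NRF1 match anywhere in the longer window, Iars2 was called higher, Farsb lower, and Kars, Mars2 and Tars were not called.

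Among the cytosolic enzymes, those for tyrosine, phenylalanine (beta subunit), cysteine and tryptophan fell to 69.6% (Cars) to 74.5% (Wars) of their AL means. Yars, which charges tyrosine, stood at 50.5, 49.9, 46.3, 49.5 and 48.3 CPM in AL 1 to 5 and at 35.4, 33.8, 35.6 and 39.2 CPM in DR 1 to 4 (-0.44 ± 0.07, adjusted p = 8.5e-04). Every DR library was below every AL library. Farsb, the beta subunit of the phenylalanine enzyme, had 43.5, 42.0, 42.3, 43.6 and 41.5 CPM in AL and 29.9, 34.3, 31.1 and 25.4 in DR (-0.50 ± 0.09, adjusted p = 0.0015). The AL libraries were close together and again above all of DR. Its partner Farsa, which carries the catalytic site, had 42.5, 44.8, 46.2, 43.1 and 39.2 CPM in AL and 43.3, 41.3, 41.3 and 36.5 in DR (-0.09 ± 0.08, adjusted p = 0.41), and the diets overlapped. The log2 ratio of Farsa to Farsb, whose proteins bind in equal number, was -0.03, 0.09, 0.13, -0.01 and -0.08 in AL 1 to 5 but 0.53, 0.27, 0.41 and 0.52 in DR 1 to 4, so the transcripts of the 2 subunits parted in every DR library.

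Cars, the cysteine enzyme, had 46.6, 44.4, 41.3, 43.6 and 35.6 CPM in AL and 29.7, 33.5, 26.9 and 27.7 CPM in DR (-0.52 ± 0.10, adjusted p = 0.0021). The groups did not overlap, with AL 5 the lowest of AL. Wars, the tryptophan enzyme, whose gene is known to respond to interferon gamma, had 47.5, 47.1, 52.4, 45.1 and 44.7 CPM in AL and 38.3, 38.8, 37.1 and 26.8 in DR (-0.43 ± 0.11, adjusted p = 0.012). All DR libraries were below AL, and DR 4 stood well under the other 3. Yars, Farsb, Cars and Wars passed in all 9 fits that left out 1 library and under all 9 alternative settings of scaling, filter and test.

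Smaller falls were found for Dars, Eprs and Vars, which charge aspartate, glutamate with proline, and valine. Dars had 72.6, 77.4, 80.3, 68.8 and 71.1 CPM in AL and 63.7, 65.5, 55.6 and 57.9 in DR (-0.29 ± 0.08, adjusted p = 0.016), without overlap, and did not pass without DR 3 (adjusted p = 0.066). Eprs, a single protein with the glutamate and the proline enzyme, had 149, 132, 136, 152 and 148 CPM in AL and 116, 122, 126 and 129 in DR (-0.22 ± 0.08, adjusted p = 0.04). The groups did not overlap but lay close, and the call held only without AL 2 or AL 3 among the fits that left out 1 library (adjusted p up to 0.097 without AL 1, 4 or 5 or any 1 of the 4 DR libraries). It was also lost with DESeq2's size factors and without the count filter (adjusted p up to 0.1). Vars, which associates with elongation factor 1, had 101, 132, 109.8, 122 and 78.4 CPM in AL and 84.3, 85.2, 88.3 and 77.7 in DR (-0.37 ± 0.13, adjusted p = 0.045). AL 5 lay within the DR range while the other AL libraries were above it, and of the fits without 1 library only that without AL 5 kept the call (adjusted p up to 0.11 without any 1 of AL 1 to 4 or of the DR libraries). Vars was also lost with DESeq2's size factors, without the filter and with limma-voom (adjusted p up to 0.06).

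Qars, the glutamine enzyme, was the 1 cytosolic member that rose. It stood at 157, 166, 169, 160.3 and 169 CPM in AL and 186, 188, 195 and 202 CPM in DR (0.23 ± 0.07, adjusted p = 0.024). Every DR library was above every AL library, although the difference was small. The call was lost without AL 1, DR 3 or DR 4 (adjusted p up to 0.064), and also with upper-quartile scaling, with library size only and without the count filter, where the fold change remained positive (0.17 to 0.25 over the alternatives).

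**Figure D2:**
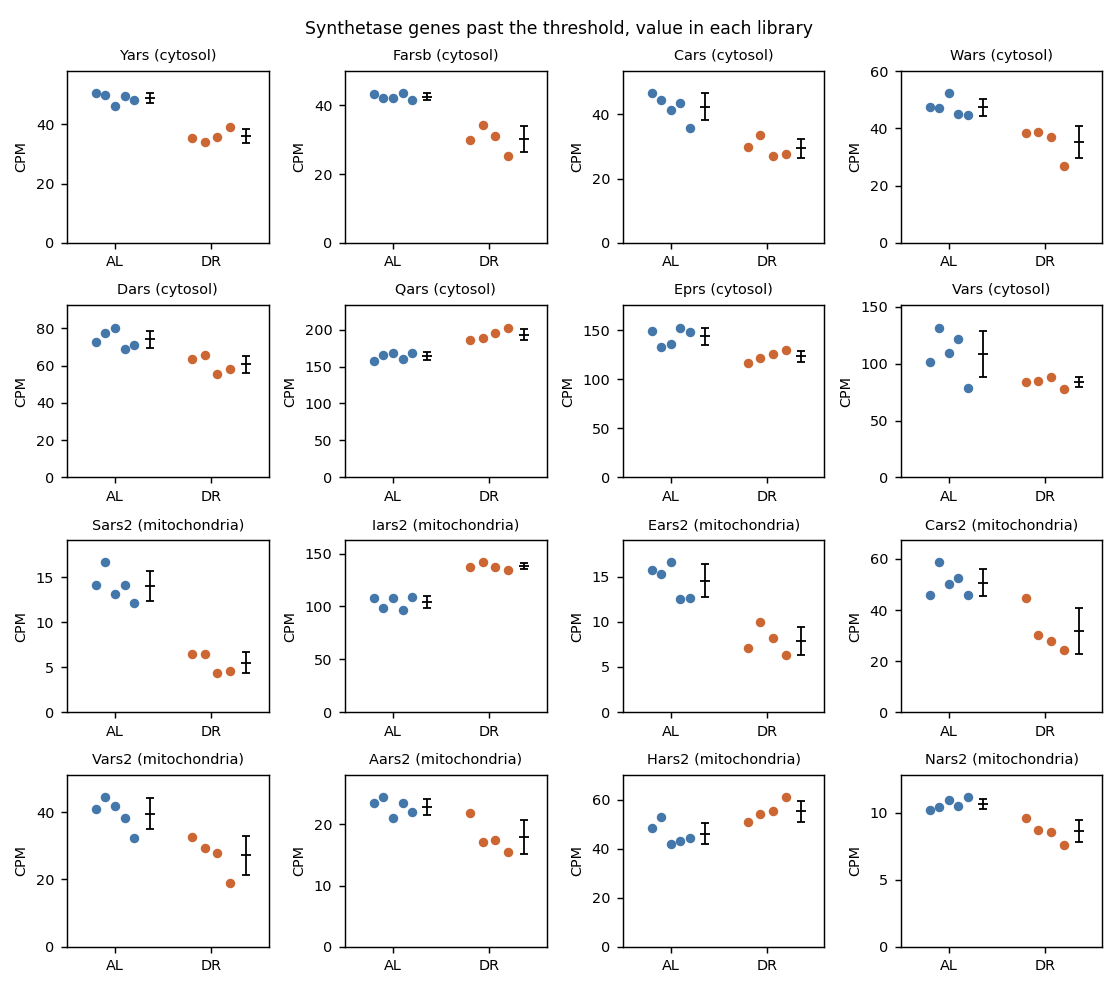
CPM (vertical axis, from 0) in each AL and DR library for the 16 members past the threshold, with the mean and SD beside each group. In Vars, Vars2, Aars2 and Hars2 at least 1 library of a diet lies within the range of the other, and the remaining 12 have no overlap between diets.

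The other 12 cytosolic genes did not pass. Kars, which serves cytosol and mitochondrion, had 78.3, 79.7, 87.8, 82.1 and 78.1 CPM in AL and 74.2, 74.1, 80.4 and 82.8 in DR (-0.06 ± 0.07, adjusted p = 0.54). Gars, which also serves both, had 55.6, 57.4, 56.7, 47.9 and 41.7 CPM in AL and 51.6, 52.7, 62.6 and 57.0 in DR (0.11 ± 0.11, adjusted p = 0.45), with AL 5 lowest. Lars, the leucine enzyme, also known as a leucine sensor for mTORC1, had 76.3, 75.4, 79.0, 72.2 and 68.1 CPM in AL and 76.5, 75.5, 61.7 and 61.3 in DR (-0.11 ± 0.09, adjusted p = 0.37). DR 3 and DR 4 were below all other libraries for Lars, and DR 1 and DR 2 within AL, so libraries of 1 diet differed more than the diets did.

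Nars, the asparagine enzyme, was among the steadiest members, with 97.6, 95.9, 103, 104 and 99.3 CPM in AL and 100, 95.3, 101 and 94.2 in DR (-0.04 ± 0.07, adjusted p = 0.7). Iars, the isoleucine enzyme, had 51.0, 43.1, 40.2, 43.7 and 40.5 CPM in AL and 51.8, 49.9, 44.7 and 35.1 in DR (0.05 ± 0.12, adjusted p = 0.75), and its sign changed with upper-quartile scaling or library size only. Hars, Rars, Tars and Sars, for histidine, arginine, threonine and serine, had log2 fold changes of -0.10, -0.07, -0.10 and -0.14, with adjusted p-values of 0.31, 0.57, 0.29 and 0.21. Aars and Mars, for alanine and methionine, did not pass (-0.23, adjusted p = 0.15 and -0.24, adjusted p = 0.1 by edgeR), but both did without AL 5, their lowest AL library (adjusted p = 0.034 and 0.031). In GENCODE M21, a mouse annotation of build GRCm38, 68 exon bases of Mars are shared with Ddit3 on the other strand. The library kit does not mark strand, so reads there cannot be told apart. Aars shares 1326 exon bases with Exosc6 on the same strand, where strand could not separate the reads in any case. Among called members Farsb shares 248 of 2199 exon bases with Sgpp2, Yars 30 with C77080 and Vars2 296 with Gm20483, all on the opposite strand.

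The serine and glutamate enzymes of the mitochondrion fell most of all 36 members. Sars2 stood at 14.2, 16.7, 13.1, 14.1 and 12.2 CPM in AL and 6.44, 6.52, 4.36 and 4.58 CPM in DR (-1.36 ± 0.17, adjusted p = 1.6e-04), so DR held 38.9% of the AL mean. Its groups were far apart, with the highest DR library below the lowest AL library. Ears2, which in mitochondria loads glutamate onto the tRNAs for both glutamate and glutamine, had 15.8, 15.3, 16.6, 12.5 and 12.7 CPM in AL and 7.16, 9.93, 8.19 and 6.29 in DR (-0.88 ± 0.16, adjusted p = 0.0014). There was no overlap, and DR held 54.2% of the AL mean. Ears2 shares 89 exon bases with Ubfd1 on the other strand, whose own log2 fold change was -0.13 (edgeR adjusted p = 0.24).

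Cars2 and Vars2, for cysteine and valine, fell as well. Cars2, which also makes cysteine persulfides, had 45.8, 58.7, 50.2, 52.7 and 46.0 CPM in AL and 44.7, 30.2, 28 and 24.3 in DR (-0.67 ± 0.16, adjusted p = 0.0069). DR 1 was only just below AL, and the other DR libraries were far below. Vars2 had 40.9, 44.5, 41.7, 38.3 and 32.3 CPM in AL and 32.5, 29.4, 27.9 and 18.9 in DR (-0.54 ± 0.15, adjusted p = 0.015), with DR 1 just above AL 5 and DR 4 lowest. Sars2, Ears2, Cars2 and Vars2 passed in all 9 fits without 1 library and under all 9 alternative settings.

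Calls for Aars2 and Nars2 were less secure. Aars2, the alanine enzyme, had 23.4, 24.5, 21.1, 23.5 and 22.02 CPM in AL and 21.9, 17.1, 17.4 and 15.5 in DR (-0.35 ± 0.11, adjusted p = 0.027). DR 1 lay within AL, and the call was lost without AL 1, AL 2, DR 2, DR 3 or DR 4 (adjusted p up to 0.079). Nars2, the asparagine enzyme, had 10.2, 10.4, 10.99, 10.5 and 11.2 CPM in AL and 9.6, 8.71, 8.57 and 7.61 in DR (-0.31 ± 0.11, adjusted p = 0.049). Its libraries did not overlap, yet of the fits without 1 library only that without DR 1 kept the call (adjusted p up to 0.12 without any 1 of the AL libraries or DR 2, 3 or 4), and DESeq2's size factors or no filter also ended it (adjusted p up to 0.1).

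Iars2 and Hars2, for isoleucine and histidine, rose in DR. Iars2 had 108, 99.0, 108, 97.1 and 109 CPM in AL and 138, 142, 138 and 135 CPM in DR (0.41 ± 0.07, adjusted p = 0.0012). Both groups were tight and did not overlap, and the call held in all 9 fits without 1 library and under all 9 alternative settings. In GENCODE M21 Iars2 shares 2034 of 6670 exon bases with Rab3gap2 on the other strand, which had a log2 fold change of 0.23 (edgeR adjusted p = 0.083), and what this overlap adds to the rise was not tested.

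Hars2 had 48.3, 52.8, 42.1, 43.3 and 44.5 CPM in AL and 50.9, 54.1, 55.4 and 61.1 in DR (0.26 ± 0.09, adjusted p = 0.038). AL 2 lay within DR, and the call held only without AL 2 or DR 1 among the fits without 1 library (adjusted p up to 0.11 without AL 1, 3, 4 or 5 or DR 2, 3 or 4). It was also lost with upper-quartile scaling, with library size only, without the count filter and with a stricter one. Hars and Hars2 lie head to head and share 195 exon bases on opposite strands, so reads there cannot be assigned to 1 of them.

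Lars2, the mitochondrial leucine enzyme, varied more between libraries of 1 diet than any other member. It stood at 119, 154, 75.9, 206 and 74.7 CPM in AL and 151, 57.0, 271 and 95.0 CPM in DR (0.19 ± 0.42, adjusted p = 0.76). The coefficient of variation was 44.3% in AL and 65.1% in DR, and without DR 3 the log2 fold change turned to -0.31. Among the other members the largest coefficients were 25.4% in AL (Pars2) and 28.1% in DR (Cars2). AL 4 and DR 3 were the high libraries, and the DR libraries spanned the whole AL range.

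Fars2, the phenylalanine enzyme, had 14.8, 14.9, 15.8, 17.6 and 17.8 CPM in AL and 15.9, 14.7, 16.5 and 19.3 in DR (0.03 ± 0.11, adjusted p = 0.83), with overlap and a sign that changed with upper-quartile scaling or library size only. Rars2 (-0.32, adjusted p = 0.065 by edgeR) passed without AL 5 (adjusted p = 0.039) and Wars2 (-0.33, adjusted p = 0.071) without DR 1 (adjusted p = 0.037). Tars2 and Yars2 had log2 fold changes of -0.17 and -0.26 (adjusted p 0.097 and 0.13). Pars2 and Mars2, for proline and methionine, had positive values of 0.49 (SE 0.24, adjusted p = 0.13) and 0.35 (SE 0.16, adjusted p = 0.095). They were the members with the fewest counts, 50 to 185 for Pars2 and 110 to 209 for Mars2 in a library.

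For 15 gene pairs, 1 cytosolic and 1 mitochondrial enzyme could be set against each other for the same amino acid (phenylalanine left out, Eprs paired with both Ears2 and Pars2). In 3 pairs (cysteine, glutamate, valine) both genes were called lower, in 3 (proline, tryptophan, tyrosine) only the cytosolic one passed, in 5 (alanine, histidine, isoleucine, asparagine, serine) only the mitochondrial one, and in 4 neither did. No pair had calls in opposite directions. A call in 1 gene and not in the other does not show that they differ, so the log2 ratio of both genes within a library is given next, with no test; this ratio does not depend on library scaling. It did not overlap between the diets in 6 of the 15 pairs (serine, glutamate, methionine, histidine, asparagine and arginine) and overlapped in the other 9. No such share was taken over ratios of other genes, so the count has no background and is not read as particular to these pairs. Among single genes the diets did not overlap for 32.9% of all tested.

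The serine pair moved apart most. The log2 ratio of Sars to Sars2 was 2.42, 2.22, 2.63, 2.37 and 2.71 in AL and 3.23, 3.40, 4.19 and 3.96 in DR, a mean change of 1.23 without overlap. For glutamate, Eprs to Ears2 gave 3.24, 3.12, 3.04, 3.60 and 3.55 in AL and 4.02, 3.61, 3.94 and 4.36 in DR, where the lowest DR value was just above the highest AL value. The methionine ratio, Mars to Mars2, went the other way, from 3.51, 3.11, 3.21, 3.66 and 3.12 in AL to 2.80, 2.79, 2.71 and 2.54 in DR, with no overlap. Histidine (Hars to Hars2) also went down without overlap, from a mean of 0.17 ± 0.18 to -0.20 ± 0.16 (SD, n = 5 and 4), and isoleucine from -1.25 ± 0.16 to -1.62 ± 0.23 with overlap. For threonine the ratio changed by 0.07 and for tryptophan by -0.09, both with overlapping diets. Asparagine and arginine ratios differed by 0.28 and 0.25 without overlap, and the proline ratio (Eprs to Pars2) had a change of -0.73 with overlap. The remaining pairs, also overlapping, differed by 0.13 (alanine), 0.18 (cysteine), -0.18 (leucine), 0.21 (valine) and -0.20 (tyrosine).

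**Figure D3:**
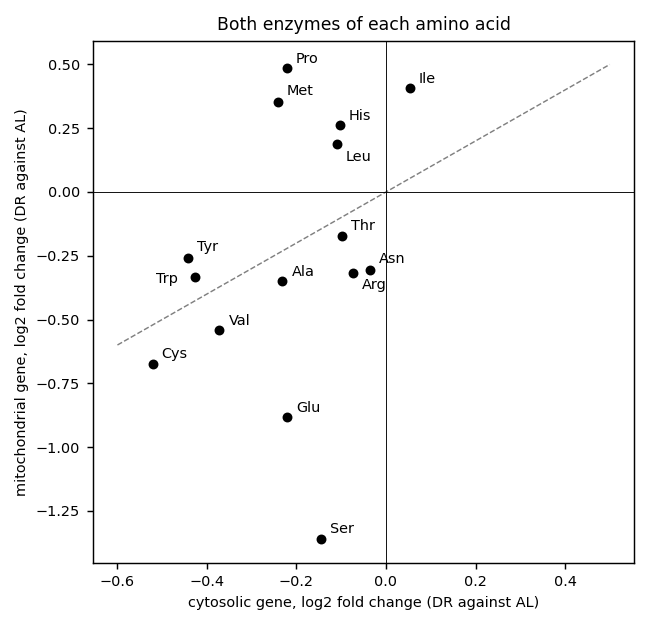
Log2 fold change of the cytosolic gene (horizontal axis) against that of the mitochondrial gene (vertical axis) for the 15 pairs, labelled by amino acid, with a dashed line where both are equal. Serine lies farthest from the line at -0.14 and -1.36, and cysteine, valine, alanine, tryptophan, tyrosine and threonine lie near it.

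By role in the cell the cytosolic calls were spread out. Of the 8 enzymes known to be held in the multisynthetase complex, 2 were lower (Dars, Eprs) and 1 higher (Qars), with a median of -0.09, and of the 12 outside it 5 were lower and none higher, with a median of -0.19. Of 13 cytosolic enzymes commonly listed as ATF4 targets 5 were lower and none higher (38.5% called, median -0.22), and of the 7 others 2 were lower and 1 higher (42.9%, median -0.09). The 18 members of the class I fold (Eprs, which holds both folds, left out) had 7 lower and 2 higher, the 17 of class II 5 lower and 1 higher. None of these shares was tested against another, and the shares are to be read beside 40.7% of all genes.

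Partners of the synthetases were followed through lists of related genes. Of the 3 scaffold proteins of the multisynthetase complex, Eef1e1 fell from 12.0, 14.2, 15.5, 13.7 and 10.4 CPM in AL to 8.38, 7.21, 6.54 and 4.55 in DR (-0.98 ± 0.19, adjusted p = 0.0019), without overlap. Aimp1 (0.08, adjusted p = 0.6) and Aimp2 (-0.24, adjusted p = 0.22) did not pass. Of 11 tested genes for other charging steps and proofreading, 4 were lower and none higher (36.4% called and 36.4% lower, against 40.7% and 21.7% of all genes). Those lower were Qrsl1, a subunit of the amidotransferase that turns glutamate loaded by Ears2 into glutamine (-0.74), the cytosolic threonine enzyme homologue Tarsl2 (-0.59), Pstk, a kinase on the path to selenocysteine tRNA (-0.45), and Aarsd1, an editing protein related to alanine synthetase (-0.42). Pstk was lost without AL 1, 2, 3 or 5 or DR 3 or 4 (adjusted p up to 0.093), Tarsl2 without AL 2 or 5 or DR 2, 3 or 4 (up to 0.085) and Aarsd1 without DR 4 (0.051).

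Of 5 genes that deliver charged tRNA in the cytosol, Eef1g (-0.85, SE 0.09, edgeR adjusted p = 6.1e-05) and Eef1d (-0.45, SE 0.11, adjusted p = 0.0099), subunits of the exchange factor of elongation factor 1, fell and none rose. These made up 40% called, all lower, against 40.7% called and 21.7% lower among all genes. Of 9 mitochondrial translation factors Tsfm (-0.78) and Mtif2 (-0.47) fell and Mtif3 rose (0.59), which are an elongation and 2 initiation factors. That is 33.3% called, below the 40.7% of all genes.

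Genes of the amino acid response other than synthetases moved in both directions. Of 27 listed and tested, 8 rose and 7 fell, with a median log2 fold change of -0.01. That is 55.6% called (29.6% higher, 25.9% lower), against 40.7% of all genes (19% higher, 21.7% lower). The kinases that phosphorylate eIF2 were higher in 3 of 4 cases: Eif2ak4, which encodes GCN2, stood at 43.2, 39.3, 39.2, 44.3 and 42.8 CPM in AL and 58.5, 57.2, 57.2 and 62.5 in DR (0.49 ± 0.07, adjusted p = 4.4e-04), with no overlap, and Eif2ak1 and Eif2ak3 rose by 0.61 and 0.51. Atf4 itself was at 539 ± 161 CPM (SD, n = 5) with AL feeding and 473 ± 128 CPM (SD, n = 4) under DR (-0.19 ± 0.24, adjusted p = 0.56), and its early targets Ddit3 (0.14, adjusted p = 0.66), Trib3 (0.17, adjusted p = 0.59) and Chac1 (0.16, adjusted p = 0.64) did not pass. Trib3 and Chac1 were low, with means of 2.17 and 1.71 CPM in AL and 2.44 and 1.90 CPM in DR. The SE was 0.24 for Ddit3, 0.23 for Trib3 and 0.25 for Chac1, so small changes in these genes could be missed. ATF4 is controlled largely at translation, so its transcript level does not measure its activity.

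Several genes of the same list encode enzymes of amino acid synthesis. Asns, which makes asparagine, fell from 17.3, 19.5, 20.3, 21.0 and 16.5 CPM in AL to 11, 11.4, 11.9 and 12.2 in DR (-0.70 ± 0.11, adjusted p = 5.0e-04). Of the enzymes that use asparagine, the cytosolic Nars did not pass. The mitochondrial Nars2 was called lower (-0.31, edgeR adjusted p = 0.049), a call that most fits without 1 library lost. Aldh18a1 (proline synthesis, -2.60) and Psat1 and Phgdh (serine synthesis, -1.79 and -0.86) fell, and Shmt2, which converts serine and glycine into each other, did not pass (-0.20, adjusted p = 0.051). Cth, which makes cysteine, rose instead, from 6.68, 6.69, 7.44, 9.68 and 7.23 CPM to 25.8, 21.3, 21.2 and 26.0 CPM (1.64 ± 0.14, adjusted p = 1.9e-05), and Pck2, a mitochondrial enzyme that makes phosphoenolpyruvate, rose by 0.81. Both cysteine synthetases, Cars and Cars2, were among those that fell.

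**Figure D4:**
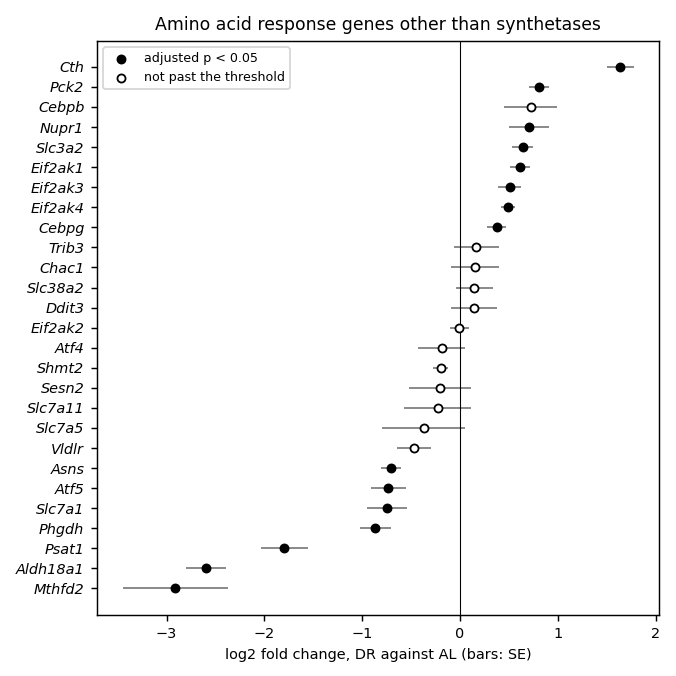
Log2 fold change of DR against AL (horizontal axis) with its SE for 27 genes of the amino acid response, filled where the adjusted p is below 0.05. Values run from -2.91 (Mthfd2) to 1.64 (Cth), and Atf4, Ddit3, Trib3 and Chac1 lie between -0.19 and 0.17, not past the threshold. Mthfd2 was low, with a mean of 6.86 CPM in AL and 0.91 CPM in DR. Its diets overlapped, with AL 5 (1.355 CPM) below DR 1 (1.474 CPM).

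The mean over each set of genes was also taken in every library, as a description with no test. The mean log2 CPM of the 20 cytosolic genes lay at 5.92 to 6.10 in AL libraries and 5.78 to 5.91 in DR, and that of the 16 mitochondrial genes 4.29 to 4.54 and 4.04 to 4.26. In both cases the highest DR library was just below AL 5, the lowest of AL. The difference between both means within a library, which scaling does not touch, lay at 1.54 to 1.71 in AL libraries and 1.62 to 1.74 in DR, so the diets overlapped there (a mean change of 0.05, from -0.18 for the cytosolic and -0.23 for the mitochondrial mean). That change was 0.022 without AL 2 and 0.077 without DR 1. AL 5 was the lowest AL library for 13 of the 20 cytosolic genes and 6 of the 16 mitochondrial ones, and DR 4 the lowest DR library for 11 and 7.

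The mean log2 CPM of 8 cell division markers was 2.37 in AL 5 and 4.38 to 5.27 in the other AL libraries, against -1.14 to 0.89 in DR, with all 8 lower in DR. AL 5 was the lowest AL library for these markers and for both synthetase means. Within DR the order differed: DR 1 was lowest for the markers (-1.14) and highest for the mitochondrial mean (4.26), and DR 4 was lowest for both synthetase means and second highest for the markers (0.52). Without AL 5, 8 cytosolic genes were lower and 1 higher, and 6 mitochondrial genes lower and 1 higher. Without AL 1, DR 1 and DR 2, the libraries with most endothelial and immune marker counts, 5 cytosolic genes were lower and none higher, and 6 mitochondrial genes were lower and 1 higher. What share of the synthetase differences goes with cell division was not tested.

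**Figure D5:**
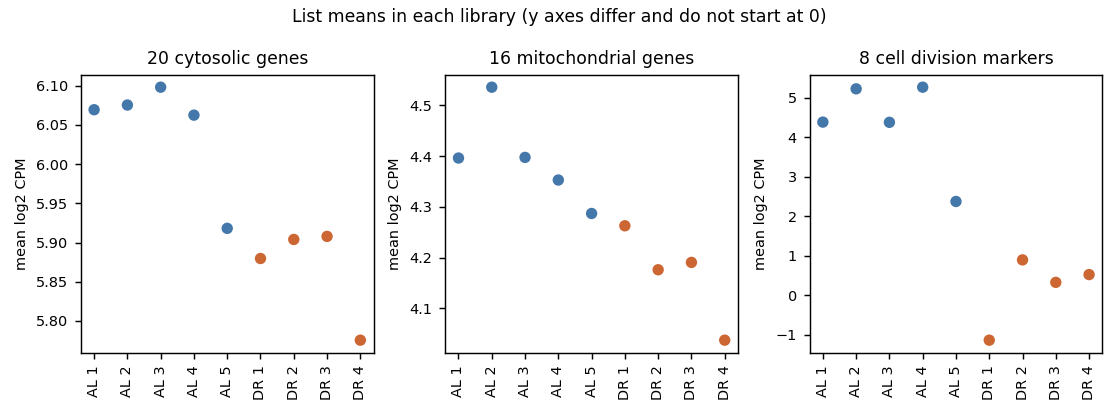
Mean log2 CPM (vertical axes, which differ and do not start at 0) of the 20 cytosolic genes, the 16 mitochondrial genes and 8 cell division markers in each of the 9 libraries. AL 5 is the lowest AL library in all 3 plots, and every DR library is below it.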

How the data were processed

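RNA was measured by sequencing in 9 libraries of sorted bulge cells (5 AL, 4 DR), prepared with a kit that does not mark strand and read as single reads of 51 cycles, per the labels' protocols. What the authors deposited are raw counts of reads by gene symbol, with no normalization. The submitters' processing notes name HTSeq 0.11.2, TopHat2 2.1.0, Bowtie, FastQC 0.11.5 and build mm9. Which annotation, strand setting and overlap rule were used is not stated there. Of 35012 lines per file, 6 name no gene; they held 25.9% to 30.7% of reads and entered neither library size nor test.

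Counts were tested with edgeR 4.0.16 in R 4.3.3: filterByExpr by diet, TMM, a quasi-likelihood fit with diet as the only term, and p-values adjusted by Benjamini-Hochberg over all 15447 tested genes at 0.05. The SE is that implied by the F statistic. Means of log2 CPM used a prior count of 2. The script was tested on simulated data. Library pairs within a diet differed by 24.6 to 109.6 in chi-square per degree of freedom, so none was a copy. Groups come from the sample titles. Equal replicate numbers were not taken as pairs, since the labels do not say that they pair animals. The deviations of libraries with equal numbers correlated by only 0.03 to 0.23. Alternatives were other scalings, filters and tests (DESeq2 1.42.0, limma 3.58.1), robust dispersion, a replicate block and leaving out libraries.

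Members, gene lists and tests were chosen with earlier results of these data known, so no p was computed over a list. Values in every library are given for the called members, the 2 with the largest p per compartment, and Kars, Gars, Eprs, Lars and Wars. Of each related list up to 4 called genes with the smallest p are named, and 9 set genes always (Atf4, Ddit3, Asns, Trib3, Chac1, Eif2ak4, Aimp1, Aimp2, Eef1e1); other genes were named after their values were seen. Promoters are RefSeq's on GRCm38.p6 and exon overlaps GENCODE M21's, a later build than that of the files, and serve only as sequence and neighbour information.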

Additional observations from a re-analysis of the deposited data

Results flagged for a closer look

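A library far from the rest of its diet was found in 7 of 116 gene and diet groups examined, by Dixon's gap test on log2 CPM (the gap to the nearest library over the whole range, above 0.71 for AL or 0.83 for DR); chance flags about 1 in 20 groups. Of these, 3 were synthetases. Mars was low in AL 5, at 38.4 CPM against 47.8 to 49.6 in the others (gap over range 0.858). Wars was low in DR 4, at 26.8 CPM against 37.1 to 38.7 in the others (gap over range 0.879). Pars2 was low in AL 4, at 1.72 CPM against 3.09 to 3.7 in the others (gap over range 0.762).

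The other flags fell on related genes. In AL 5, Aimp2 stood at 8.84 CPM against 12.1 to 13.8 in the others (gap over range 0.711), Aldh18a1 at 24.8 CPM against 42.9 to 47.6 in the others (gap over range 0.84) and Psat1 at 19.1 CPM against 36.5 to 44.4 in the others (gap over range 0.766). Qrsl1 was low in DR 4, at 4.42 CPM against 6.72 to 7.1 in the others (gap over range 0.885). AL 5 thus had 4 of the 7 flags, always as the low library.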

How the results depend on the processing

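Of the 16 called members, 9 (Cars, Farsb, Wars, Yars, Cars2, Ears2, Iars2, Sars2, Vars2) passed in every fit without 1 library and under each of the 9 alternative scalings, filters and tests. Cytosolic genes called lower numbered 4 to 8 when 1 library was left out and mitochondrial ones 4 to 7; those called higher numbered 0 to 1 and 1 to 2. The cytosolic higher call became 0 with the upper-quartile method, with plain library size, unfiltered, and without AL 1, DR 1 and DR 2. Mitochondrial higher calls became 1 under those 3 settings, under the stricter filter (at least 10 CPM in 4 libraries, which drops Mars2 and Pars2), without AL 1, DR 1 and DR 2 (chosen after seeing the data), and with the replicate block. Mitochondrial lower calls were 9 with upper-quartile scaling. With the replicate block, on the 4 numbers both diets have, 7 cytosolic genes were lower and 1 higher. Of the mitochondrial genes 5 were lower and 1 higher. The block used fewer libraries, and among DR libraries only DR 3 correlated best with the AL library of its own number. The median of the cytosolic genes ran from -0.19 (library size only) to -0.11, that of the mitochondrial genes from -0.35 to -0.24, and was -0.31 without Lars2; the median of all genes was -0.09 with library size only. Sign changes were confined to genes that did not pass: Iars (-0.0129 to 0.161 when 1 library was left out, -0.0057 with upper-quartile scaling, -0.011 with library size only, -0.068 without AL 1, DR 1 and DR 2), Fars2 (-0.024 and -0.027 in the same order, -0.0448 to 0.0914 when 1 library was left out), Lars2 (-0.13 with the replicate block, -0.307 to 0.453 when 1 was left out), Chac1 (-0.0408 to 0.302 likewise, -0.24 without AL 1, DR 1 and DR 2) and Ddit3 (-0.0994 to 0.331 likewise). The cause of these changes was not tested. Depth was lowest for Pars2, with 50 counts in 1 library.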
